A study of Mus musculus with 8 samples.

Results

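RNA polymerase II HiChIP in E14 mouse embryonic stem (ES) cells lacking KLF4 listed 3484 chromatin loops between 2 distal sites, which are the subject here. They are the rows of the KLF4-KO loop list that join different anchors with at least 2 paired-end tags (PETs, read pairs that join the 2 anchors), over a midpoint distance from 20 kb to under 1 Mb, where neither anchor lay within 1 kb of an annotated start or end of a RefSeq mm10 gene. They were chosen from 118475 listed rows, of which 104844 join different anchors and 30928 of these have at least 2 PETs. At that distance 23004 loops remained, and 15.1% of them were distal-distal, beside 9492 that join a gene end to a distal site and 10028 that join 2 gene ends. PET counts, distances and anchor positions chose the loops, so those values are given as a description with no test.

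The study compared KLF4-KO E14 cells, in which the gene of the transcription factor KLF4 was knocked out, with WT E14 cells, by RNA-seq and by RNA polymerase II HiChIP, under a title about early neural differentiation. The labels list 2 libraries per genotype and assay and call them biological replicates, but each genotype's HiChIP is 1 pooled list, so loop values have no spread between samples and no test. Both genotypes are E14 cells grown on gelatin without a feeder layer being named. One protocol text gives 15% serum with 10 ng/mL LIF, 1 µM PD0325901 (a MEK inhibitor) and 3 µM CHIR99021 (a GSK inhibitor), while the other gives 15% serum and 1000 U/mL LIF with neither inhibitor. The labels carry both texts for every library and do not say how the media combine or follow each other. They name neither the clone or clones behind the KLF4-KO libraries nor the edit that disrupted the gene.

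Enhancers are stretches of DNA that raise transcription from promoters that may lie far away, and RNA polymerase II is found at active enhancers as well as at promoters and along transcribed genes. HiChIP ligates DNA ends that lie close together in the nucleus and pulls down those bound by one protein, so a loop between sites away from any gene end joins places such as enhancers, gene interiors or unannotated starts. In ES cells, the genes of the pluripotency network, among them Nanog, Sox2 and Esrrb, are known for clusters of strong enhancers, and KLF4 is a zinc finger protein that binds GC-rich sites at many of them.

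No sequence of the anchors themselves was used, but 6 promoter windows from RefSeq (GRCm38.p6, 250 bases before to 50 after a transcript start) bear on the loops. The first 4 are promoters of protein-coding genes that lay inside a distal anchor of this class, taken in order of the strongest loop of that anchor (42, 35, 16 and 15 PETs), so these anchors are distal to the gene's outer ends but hold an internal transcript start. The other 2 are the promoters of Nanog and Sox2, which both anchors of a distal-distal loop described here also contacted. Capitals mark matches to the KLF motif GGGNGTGG or CCACNCCC and to the OCT-SOX motif TTGTNATGC or GCATNACAA, searched on both strands.
Zmynd8, minus strand, chr2:165858124-165858423: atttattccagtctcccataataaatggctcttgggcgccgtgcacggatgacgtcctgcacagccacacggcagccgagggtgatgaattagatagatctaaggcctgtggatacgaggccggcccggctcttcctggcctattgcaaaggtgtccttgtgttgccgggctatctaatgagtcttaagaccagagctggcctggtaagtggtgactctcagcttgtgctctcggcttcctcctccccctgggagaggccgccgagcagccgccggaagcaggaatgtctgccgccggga
Etl4, plus strand, chr2:20519263-20519562: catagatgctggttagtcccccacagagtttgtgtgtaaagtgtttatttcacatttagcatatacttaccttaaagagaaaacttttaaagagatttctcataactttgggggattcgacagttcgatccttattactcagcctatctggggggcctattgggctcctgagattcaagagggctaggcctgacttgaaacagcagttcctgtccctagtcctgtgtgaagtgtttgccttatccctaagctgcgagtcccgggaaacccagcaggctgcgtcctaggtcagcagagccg
Dennd2c, plus strand, chr3:103127306-103127605: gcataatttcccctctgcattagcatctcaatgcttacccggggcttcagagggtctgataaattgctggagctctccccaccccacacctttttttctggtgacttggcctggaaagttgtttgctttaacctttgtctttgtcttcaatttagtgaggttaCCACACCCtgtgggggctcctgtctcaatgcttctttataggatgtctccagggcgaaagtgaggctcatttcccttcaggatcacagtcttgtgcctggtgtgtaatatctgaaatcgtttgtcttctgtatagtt
Ppp1cc, plus strand, chr5:122158025-122158324: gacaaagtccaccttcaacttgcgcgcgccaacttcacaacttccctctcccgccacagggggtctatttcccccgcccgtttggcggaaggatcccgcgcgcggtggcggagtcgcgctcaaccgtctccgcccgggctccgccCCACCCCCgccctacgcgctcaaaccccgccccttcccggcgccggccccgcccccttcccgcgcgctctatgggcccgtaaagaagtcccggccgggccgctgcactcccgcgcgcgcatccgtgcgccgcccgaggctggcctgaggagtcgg
Nanog, plus strand, chr6:122707239-122707538: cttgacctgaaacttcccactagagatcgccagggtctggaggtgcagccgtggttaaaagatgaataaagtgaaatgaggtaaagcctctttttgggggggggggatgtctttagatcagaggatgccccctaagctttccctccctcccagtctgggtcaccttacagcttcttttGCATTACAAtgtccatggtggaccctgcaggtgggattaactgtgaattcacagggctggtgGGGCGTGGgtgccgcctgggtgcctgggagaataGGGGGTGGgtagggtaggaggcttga
Sox2, plus strand, chr3:34649745-34650044: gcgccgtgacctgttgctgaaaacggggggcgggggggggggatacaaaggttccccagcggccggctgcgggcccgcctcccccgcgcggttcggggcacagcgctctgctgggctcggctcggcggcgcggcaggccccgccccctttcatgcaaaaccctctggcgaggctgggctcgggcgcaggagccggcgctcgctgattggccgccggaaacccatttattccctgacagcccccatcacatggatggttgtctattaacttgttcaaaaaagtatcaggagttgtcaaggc

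The KLF motif occurred once in the Dennd2c window and once in the Ppp1cc window, and 2 times in the Nanog window beside 1 OCT-SOX match. The Zmynd8, Etl4 and Sox2 windows held neither motif, which says only that these letters are absent from these bases. In all, 256 promoter windows of 200 genes lay inside anchors of distal-distal loops. Of these, 43 (16.8%) held the KLF motif, against 5789 of all 32851 promoter windows (17.6%). The OCT-SOX motif was in 1 of the 256 (0.391%), against 240 of all windows (0.731%), and the ESRRB motif TCAAGGTCA or TGACCTTGA was also in 1, against 139 (0.423%). Median GC content was 60.7% in the 256 windows, against 52.7% in all. By this count the windows inside these anchors held the KLF motif at about the share of all promoter windows. Windows of the same gene can overlap and hold the same match, and the part of the GC difference was not tested.

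Over all distances together, distal-distal loops had about as many PETs per loop as the other mid-range loops. The rule cut all 3 classes at 2 PETs and the classes differ in distance, so these values do not compare loops at like distance. The PETs of the distal-distal loops numbered 14189, or 14.8% of the 96171 mid-range PETs of the KLF4-KO pool. The median was 3 PETs per loop in all 3 classes, the mean was 4.07 against 4.15 for gene-end-to-distal and 4.25 for gene-end pairs, and 211 (6.06%) reached 10 PETs, against 6.02% and 6.5%. The highest value was 146 PETs, against 176 and 218. The 52 loops of at least 20 PETs held 12.6% of the PETs of the class. Exactly 2 PETs, the smallest number allowed, were behind 1694 loops (48.6%), and 5934 further pairs that met every other condition had 1 PET and were not counted. The other edges were as close. The shortest loop spanned 20.0005 kb and the longest excluded pair below it 19.9825 kb, and the nearest anchor lay 1004 bp from a gene end while the farthest excluded one lay at 999 bp. In 446 loops an anchor lay 1 to 2 kb from a gene end, and in 987 both anchors lay over 10 kb away.

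They were shorter than the other classes. The median distance was 72.3 kb (quartiles 37.8 and 152 kb), against 92 kb for gene-end-to-distal loops and 110 kb for gene-end pairs. Distal-distal loops made up 19.9% of mid-range loops from 20 to 40 kb and 17.3% from 40 to 80 kb, then 14.5%, 11.1% and 10.3% in the next bins up to 640 kb. Beyond that, to 1000 kb, they made up 12.7%, on 90 loops. Mean PETs fell with distance within the class, from 5.52 at 20 to 40 kb to 2.40 beyond 640 kb. The class mean was under those of the other classes at 20 to 40 kb (6.59 and 7.27). It was also lower, by less, at 40 to 80 kb (4.14, against 4.39 and 4.72) and beyond 640 kb (2.49 and 2.48 in the others). In the bins between, it lay between the other 2 means. Across the 3484 loops, PETs correlated with distance at a Spearman rho of -0.302, with the summed anchor width at 0.410 and with the product of the anchors' own same-anchor PETs at 0.402. These are descriptions over loops of 1 pool that share anchors. The median summed anchor width was 7.73 kb in loops of 2 PETs and 26.0 kb in those of 20 or more, so wider anchors and higher counts went together.

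**Figure D1:**
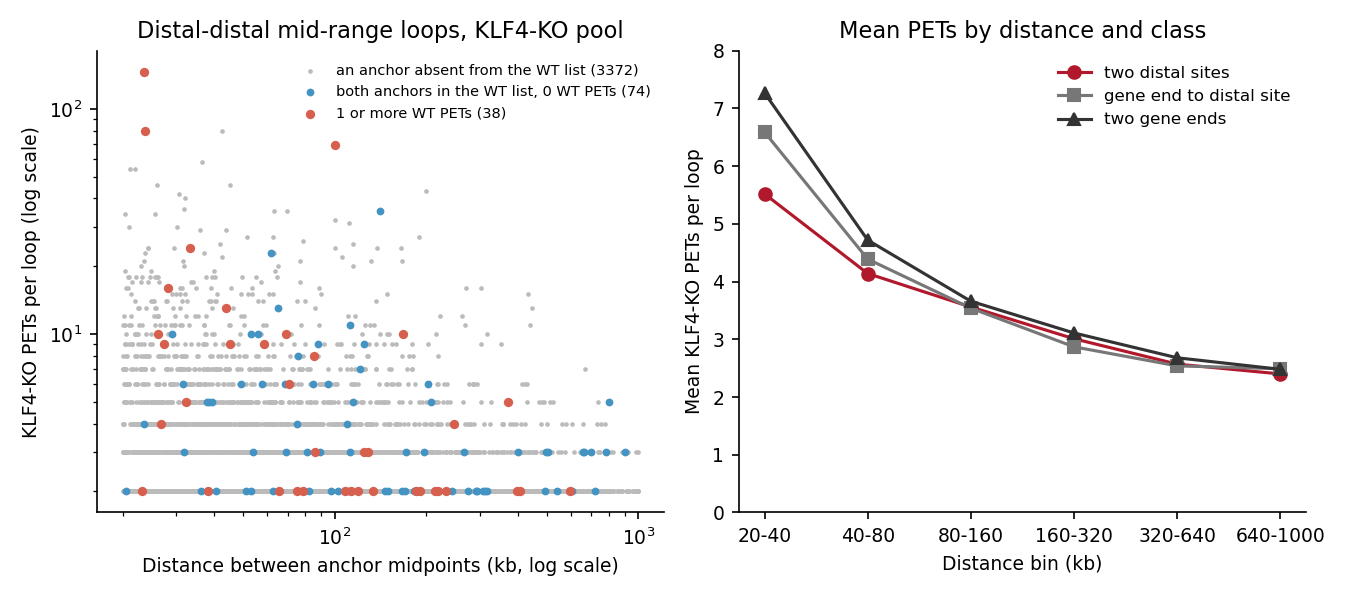
KLF4-KO PETs of each of the 3484 distal-distal loops against the distance between anchor midpoints (left, both axes logarithmic), coloured by what the WT pool listed at the same anchors, and mean PETs per loop by distance bin for the 3 classes of mid-range loops (right). Most points are grey, with at least 1 anchor that the WT pool did not list, and class means differ mainly below 40 kb (5.52, 6.59 and 7.27).

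The 3484 loops used 3271 anchors of the 8033 distal anchors in the KLF4-KO pool. These anchors were wider than the distal anchors in no such loop (median 3.23 kb against 2.48 kb) and held more same-anchor PETs (median 5 against 1). Gene-end anchors lay between them in both, at 3.10 kb and 3 PETs. More of them lay inside a gene, 2246 (68.7%, exact 95% binomial interval 67.0 to 70.3), against 61.4% (60.0 to 62.7) of the other distal anchors. The intervals cover counting error only. The median gap to the nearest gene end was 8.88 kb. Both anchors lay in genes in 1795 loops (51.5%), and in 894 of these (25.7% of all) they lay in the same gene. One anchor lay in a gene in 1254 loops (36.0%) and neither did in 435 (12.5%). No whole protein-coding gene lay between the anchors in 2229 loops (64.0%), and 5 or more did in 344.

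In most of these loops an anchor also touched a gene end. In 3162 loops (90.8%) at least 1 anchor had a mid-range loop to a gene end as well, in 2286 (65.6%) both did, and in 1723 (49.5%) both anchors were joined to one and the same gene-end anchor, which makes a triangle of 2 distal sites and a gene end. Triangles were found for 153 of the 211 loops of at least 10 PETs (72.5%, 66.0 to 78.4) and for 682 of the 1694 loops of 2 PETs (40.3%, 37.9 to 42.6). Loops within one gene made up 42.7% of the first group and 25.7% of all. The triangle share was 74.2% at 10 to 19 PETs and 67.3% at 20 or more. Median summed anchor width was 7.73 kb at 2 PETs, against 16.6 and 26.0 kb in these tiers, and its part was not tested.

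Of the 10 loops with the most PETs, 3 lay at or near the ES cell genes Esrrb, Nanog and Jarid2. First was a loop of 23.6 kb within Esrrb, the gene of an orphan nuclear receptor of the naive pluripotency network (ENSMUSG00000021255, chr12:86361117-86521628 on mm10). It joined chr12:86469566-86477652 and chr12:86478967-86515449 with 146 PETs in the KLF4-KO pool (exact 95% Poisson interval 123 to 172), against 10 PETs in the WT pool. The right-hand anchor was 36.5 kb wide and had 621 same-anchor PETs, the most of any anchor of this class. Neither Esrrb anchor was joined to an annotated end of Esrrb by a mid-range loop. The wide anchor had 40 PETs to the end of Irf2bpl, which encodes an IRF2-binding-protein family member, 404 kb away. Another anchor, chr12:86792703-86808514, was joined to the wide Esrrb anchor with 16 PETs over 303 kb and to Irf2bpl with 176 PETs over 100 kb. The WT pool listed no PETs for these last 3 pairs, but chr12:86792703-86808514 overlapped no WT anchor, so its pairs have no WT value. Within 100 kb of Esrrb there were 13 distal-distal loops of 13 anchors. They had 222 PETs in the KLF4-KO pool against 13 in the WT pool, and 182 of the KLF4-KO PETs fell on 3 loops inside the gene. These totals are not like for like, since loops such as those of 30 and 16 PETs have an anchor absent from the WT list.

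The second loop lay downstream of Nanog (ENSMUSG00000012396, chr6:122707489-122714633), the gene of a homeodomain factor that holds ES cells undifferentiated. It joined chr6:122738257-122746591 and chr6:122757921-122774326, both inside the annotated span of Slc2a3, the gene of the glucose transporter GLUT3. It had 80 PETs in the KLF4-KO pool (63.4 to 99.6), against 8 in the WT pool. Both anchors also contacted the gene ends of Nanog, Slc2a3 and Phc1, a gene of a Polycomb complex subunit. Another site, chr6:122730582-122734969, was joined to the right-hand anchor with 24 PETs in the KLF4-KO pool, against 6 in the WT pool. All 3 sites were joined to the Nanog anchor. Going outward, these links had 15, 30 and 45 PETs in the KLF4-KO pool, against 26, 20 and 2 in the WT pool. The nearest of the 3 links thus had more PETs in the WT pool than in the KLF4-KO pool, although the KLF4-KO pool held 10.0 times the PETs between anchors. The same was so of that site's link to the Gdf3 and Apobec1 anchor, with 3 KLF4-KO PETs against 6 WT PETs, and of its distal-distal loop to chr6:122809567-122813109, with 2 KLF4-KO PETs against 3 WT PETs. Within 100 kb of Nanog there were 19 distal-distal loops, with 180 PETs in the KLF4-KO pool against 19 in the WT pool. Any pair with an anchor absent from the WT list has no WT value and adds 0 to the WT total.

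The remaining 8 loops of the 10 had 43 to 80 PETs. At Smarcad1, the gene of a chromatin remodeller, chr6:65007203-65028728 and chr6:65055679-65065333 were joined with 80 PETs, and the first of these had 67 PETs to a Smarcad1 end. At Chd2, the gene of another chromatin remodeller, chr7:73513035-73529442 and chr7:73612022-73630473 were joined over 100 kb with 69 PETs, against 2 in the WT pool. On chromosome 2, chr2:17931934-17947910 and chr2:17968511-17984410, in no gene, had 58 PETs, and both contacted gene ends of Mllt10, Skida1 and the neighbours Commd3 and Bmi1, a Polycomb gene. Near Ptprk, the gene of a receptor tyrosine phosphatase, chr10:27984850-27997972 and chr10:28006559-28018459 had 54 PETs. Inside Aff1, a gene of the transcription elongation machinery, chr5:103703195-103711182 and chr5:103719333-103739043 also had 54. Inside Cdh1, the gene of E-cadherin, chr8:106607537-106625385 and chr8:106638333-106646595 had 46. Near Jarid2, which encodes an accessory subunit of Polycomb repressive complex 2, chr13:44667219-44681860 and chr13:44714021-44725337 had 46. Except at Chd2, the WT pool listed no PETs for these loops. Each of those without WT PETs had an anchor that overlapped no WT anchor, so it has no WT value.

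The tenth loop was unlike the others. It joined chr8:20388399-20390324, in the pseudogene 2610005L07Rik, and chr8:20587460-20590264 over 200 kb with 43 PETs. Neither end overlapped a WT anchor, so the loop has no WT value. Its anchors were only 1.93 and 2.81 kb wide and had 0 same-anchor PETs each. In the class, 33 loops had no same-anchor PET at either anchor, with a median of 2 PETs, and 15 PETs was the next highest value among them. Related gene copies lie nearby, so reads and PETs are uncertain there where they fit more than 1 copy.

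**Figure D2:**
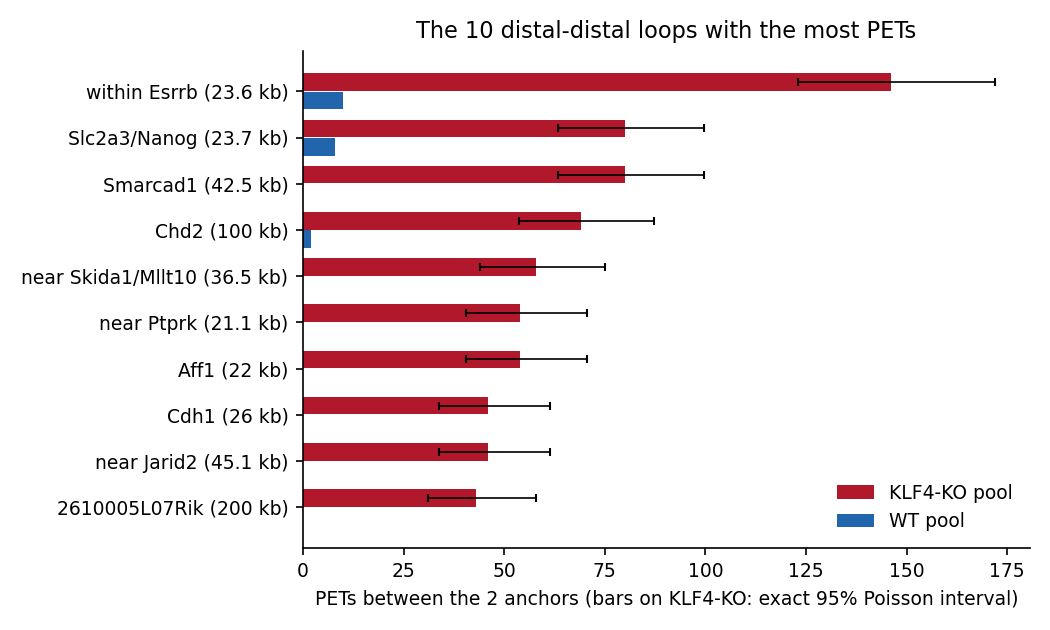
PETs in the KLF4-KO pool (red, above) and in the WT pool (blue, below) for the 10 distal-distal loops with the most PETs, each with its distance. The KLF4-KO values run from 43 to 146, with exact 95% Poisson intervals that cover counting error only, and the WT pool listed 10, 8 and 2 PETs for 3 of the loops. The other loops are drawn at 0, but each had an anchor absent from the WT list and so has no WT value.

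**Figure D3:**
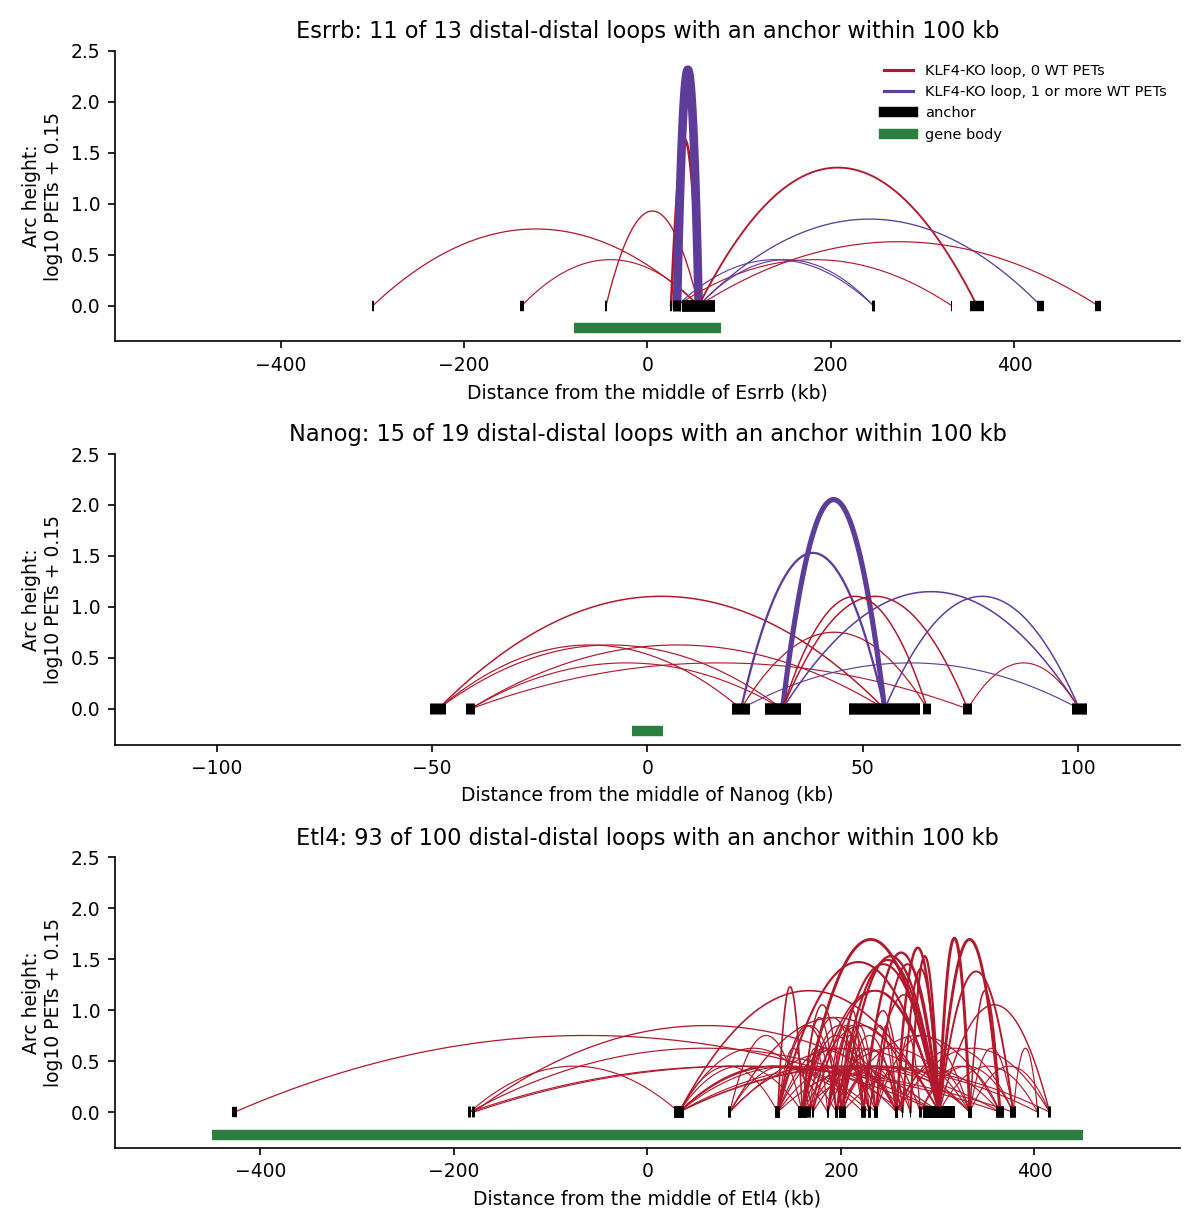
Distal-distal loops with an anchor within 100 kb of Esrrb, Nanog and Etl4, drawn as arcs between anchor midpoints at their distance in kb from the middle of the gene, with height and line width growing with KLF4-KO PETs. Arcs that run out of the window are left out, so 11 of 13, 15 of 19 and 93 of 100 are drawn, and arcs with WT PETs (purple) occur at Esrrb and Nanog and at none of the Etl4 pairs.

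Other genes of the ES cell network had weaker distal-distal loops. At Sox2 (ENSMUSG00000074637, chr3:34649995-34652461), whose protein partners OCT4 on DNA, chr3:34734164-34740220 and chr3:34754817-34765567 were joined with 17 PETs, 81.7 kb from the gene. Both were joined to the Sox2 anchor, with 5 PETs over 85.6 kb and 36 PETs over 109 kb in the KLF4-KO pool. The second link had 7 PETs in the WT pool, while chr3:34734164-34740220 overlapped no WT anchor, so its pairs have no WT value. At Jarid2, a second loop joined chr13:44667219-44681860 to chr13:44700371-44713092 with 40 PETs, and the gene-end anchor of Jarid2 had 21 and 37 PETs to these 2 sites. The second of these links had 4 PETs in the WT pool, while chr13:44667219-44681860 overlapped no WT anchor, so its pairs have no WT value. Etv5, the gene of an ETS factor downstream of FGF signalling, had a loop of 138 kb with 24 PETs between chr16:22397943-22419424 inside the gene and chr16:22543599-22549646. Its inner site had 71 PETs to the Etv5 end in the KLF4-KO pool, against 4 in the WT pool. Id1, the gene of an inhibitor of basic helix-loop-helix factors, lay near loops of 15 and 13 PETs, which ended on chr2:152814057-152823889 inside Bcl2l1. Pou5f1, which encodes OCT4, had 1 such loop of 3 PETs within 100 kb, and Klf4 had none.

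Of 33 pluripotency and ES cell enhancer genes, 21 (63.6%) had an anchor of a distal-distal loop within 100 kb, as had 10 of 19 formative epiblast genes (52.6%) and 9 of 18 genes of Mediator, cohesin and related factors (50.0%). The share was 4 of 20 for early neural genes (20%), 2 of 12 for primitive endoderm markers (16.7%), 1 of 8 for trophoblast markers (12.5%) and 0 of 10 for fibroblast and feeder markers, against 5206 of all 21900 RefSeq protein-coding genes (23.8%). These lists were chosen with results of these data known and carry no test. They also differ in expression. All 33 pluripotency genes, all 18 of the Mediator list and 18 of 19 formative genes had enough RNA counts to be tested. This was so for 13 of 20 early neural genes, 8 of 12 primitive endoderm, 5 of 8 trophoblast and 5 of 10 fibroblast and feeder markers. The part of expression in these shares was not tested.

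Loops of this class were linked to each other. Of the anchors, 1659 (50.7%) had 1 partner in the class, 280 had at least 5 and 27 had at least 10. Linked loops formed 749 separate groups, of which 363 were single pairs, and the 72 groups of at least 10 anchors held 1740 loops (49.9%). The anchor with the most partners was chr2:20645543-20677915, 32.4 kb wide, inside Etl4 (ENSMUSG00000036617, chr2:19910207-20810535), also known as Skt, which is needed for normal intervertebral discs in the mouse. It had 25 partners from 29.5 to 728 kb away, 417 PETs and 562 same-anchor PETs. Only 1 of its mid-range loops went to a gene-end anchor, at Arhgap21. The group around it held 27 anchors, 100 loops and 669 PETs within 1015 kb, over 2 protein-coding genes. The WT pool listed 0 PETs for any of them, although the hub itself overlapped a WT anchor. Pairs with an anchor that overlapped no WT anchor, such as chr2:20615977-20619592, have no WT value. Of the 4 next hubs, 3 also lay inside Etl4, with 14, 14 and 13 partners, and the other one, chr2:31059821-31071614 inside Fnbp1, the gene of a membrane-bending F-BAR protein, had 16 partners and 11 gene-end partners. Anchors inside Nmnat2 and Zmynd8 also had 13 partners.

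Loops with both ends in the same gene occurred in 309 genes. Etl4 had 93 of them, ahead of Msi2, the gene of an RNA-binding protein of stem cells, with 30 loops and 187 PETs. Ncor1, the gene of a nuclear receptor corepressor, also had 30 loops, with 153 PETs, and Sipa1l3 had 27 with 132 PETs. Tns3, the gene of a focal adhesion protein, had 17 loops and 144 PETs. The WT pool listed 0 PETs for the same-gene loops of all 5 genes, but pairs with an anchor absent from the WT list have no WT value. These genes are long, at 900, 379, 142, 199 and 233 kb in that order. The 1235 protein-coding genes that hold an anchor had a median span of 51.6 kb, against 17.1 kb for all protein-coding genes.

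Chromosome 2 held 455 of the loops (13.1%) and 52 of the 211 with at least 10 PETs, more than any other chromosome. It had 75.7 loops per 100 distal anchors, against 28.6 to 58.8 on the other autosomes. Without its 2 largest groups, at Fnbp1 and at Etl4, 262 loops remained on 530 distal anchors, or 49.4 per 100, while the range of the other autosomes is with their own largest groups kept. The X chromosome had 11 loops, or 7.01 per 100 distal anchors, in a line from a male embryo, and the Y chromosome had 0 on 1 distal anchor. In both KLF4-KO RNA libraries, 4 of 5 tested Y-linked genes had 0 counts, and any bearing on these loop counts was not tested.

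The WT pool listed few of these pairs. The KLF4-KO pool held 401726 PETs on 18293 anchors, of which 43.9% were distal, against 35189 PETs on 8373 anchors, of which 21.6% were distal, in the WT pool. Both anchors overlapped a WT anchor in 112 of the 3484 loops (3.21%, 2.65 to 3.86), 1 anchor did in 935 and neither in 2437. The share was 12.1% (11.4 to 12.8) for gene-end-to-distal loops and 46.4% (45.5 to 47.4) for gene-end pairs. Of the distal-distal loops, 38 (1.09%, 0.773 to 1.49) had at least 1 WT PET, with 78 WT PETs in all. The 14189 KLF4-KO PETs thus stood at 182 per WT PET, against 43.9 for gene-end-to-distal loops and 10.4 for gene-end pairs. The ratio of all PETs between anchors was 10.0. Where both anchors were in the WT list the classes came closer. There, 38 of 112 distal-distal loops had a WT PET (33.9%, 25.3 to 43.5), against 37.8% (35 to 40.7) and 41.6% (40.2 to 43.0), and KLF4-KO PETs stood at 10.5, 6.94 and 5.40 per WT PET in that order. Both sets of ratios use the KLF4-KO counts that chose the loops, so their order is a description only. The first set counts pairs that have no WT value as 0. In the second, the strongest Esrrb loop alone held 146 of the 822 KLF4-KO PETs and 10 of the 78 WT PETs of the distal-distal loops. Since loops were chosen on KLF4-KO counts and anchors were listed separately in pools of unequal depth, genotype, depth and anchor calling cannot be told apart. A pair with an anchor absent from the WT list has no WT value, and a listed pair with 0 WT PETs allows up to 3 counts.

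**Figure D4:**
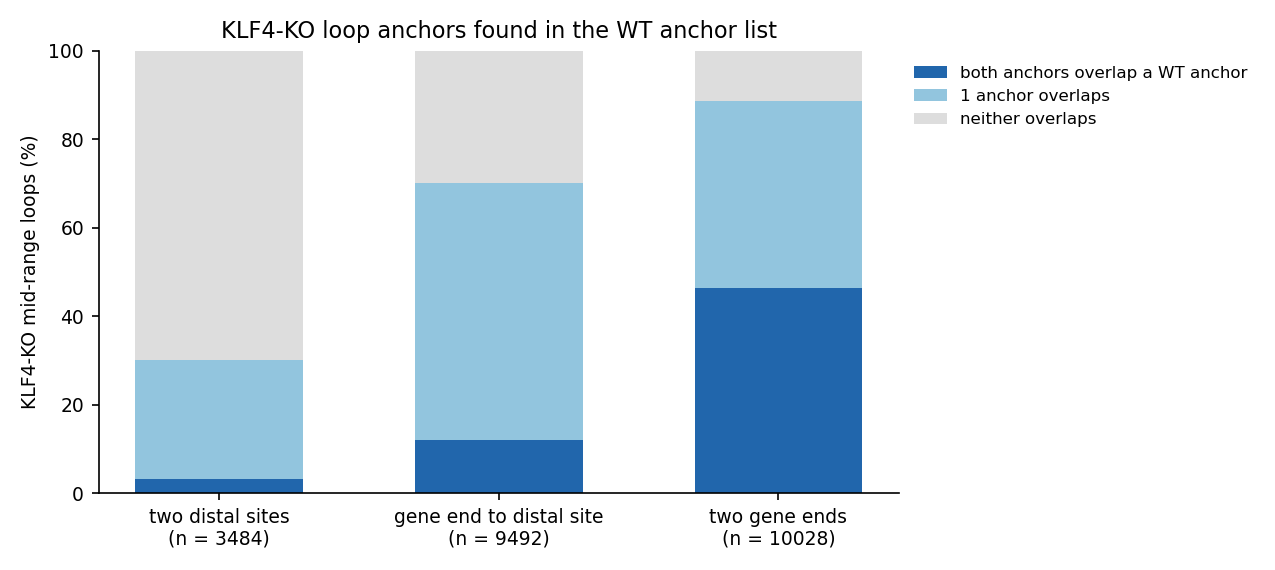
Share of KLF4-KO mid-range loops with both, 1 or neither anchor overlapping an anchor of the WT list, for the 3 classes. Both overlapped in 3.21% of the distal-distal loops, 12.1% of gene-end-to-distal loops and 46.4% of gene-end pairs.

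Chosen by the same conditions within each pool, distal-distal loops made up 15.1% of mid-range loops in the KLF4-KO pool (14.7 to 15.6), against 60 of 1951 in the WT pool (3.08%, 2.35 to 3.94). Counted by PETs, with pairs of 1 PET included, the distal-distal share was 15.1% in the KLF4-KO pool, against 3.62% in the WT pool. Counted in that way on the anchors that the 2 lists share, distal-distal pairs took 963 of 36383 mid-range PETs in the KLF4-KO pool (2.65%, 2.48 to 2.82). In the WT pool they took 150 of 9657 (1.55%, 1.32 to 1.82). No spread between replicates can be had for any of these shares.

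Several of the loops with WT PETs lay at Esrrb and Nanog. Of those with an anchor inside Esrrb, 4 had WT PETs (10, 1, 1 and 1), and the Nanog neighbourhood had 5 loops with 8, 6, 3, 1 and 1 WT PETs. A pair of sites on chromosome 2 in no gene, chr2:72992635-72998755 and chr2:73019086-73028890, had 16 KLF4-KO PETs and 4 WT PETs. A pair reaching into Nedd4, the gene of a ubiquitin ligase, had 5 KLF4-KO PETs and 4 WT PETs, and one inside Ccnd3, the gene of cyclin D3, had 9 KLF4-KO PETs and 2 WT PETs.

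Distal anchors that hold an internal promoter were more often in the WT list. This was so for 125 of 203 such anchors (61.6%, 54.5 to 68.3), against 351 of 3068 without one (11.4%, 10.3 to 12.6). Both kinds had a median of 5 same-anchor PETs, and median widths were 3.49 and 3.21 kb. The Ppp1cc and Etl4 windows shown above lay in anchors that overlap a WT anchor, and the Zmynd8 and Dennd2c windows did not. Their anchors took part in 4, 14, 13 and 4 distal-distal loops, with 25, 98, 152 and 28 PETs. Ppp1cc encodes a catalytic subunit of protein phosphatase 1, Zmynd8 a reader of histone marks, and Dennd2c a regulator of Rab GTPases. An internal promoter lay in an anchor of 389 loops (11.2%) and in both anchors of 16.

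RNA was measured in 4 libraries with 8448519 and 8287497 gene counts in KLF4-KO libraries B and F, against 9020599 and 9762190 in WT libraries 1 and 2. Klf4 itself (ENSMUSG00000003032) had 0 counts in both KLF4-KO libraries, against 306.2 and 263.3 CPM (counts scaled to the library total after edgeR's TMM adjustment) in the WT libraries. The marker sums that follow are counts scaled to the library's gene total without the TMM adjustment. The 5 ES cell markers Pou5f1, Sox2, Nanog, Zfp42 and Dppa5a summed to 5970 and 5510 CPM in KLF4-KO cells, against 5240 and 6660 CPM in WT cells, with none at 0. The 12 primitive endoderm markers summed to 285 and 308 CPM, against 576 and 478 CPM in WT, and of the 8 tested 3 were called higher and 2 lower. The 8 trophoblast markers summed to 143 and 80.4 CPM, against 99.2 and 104 CPM, and the 10 fibroblast and feeder markers to 1200 and 1540 CPM, against 3140 and 1870 CPM, with 2 of these 10 at 0 throughout. On chromosome 14 the median log2 fold change was -0.63 and 82 of 467 tested genes were lower, and 4 of the 5 tested Y-linked genes, Ddx3y, Eif2s3y, Uba1y and Uty, were called lower with 0 counts in both KLF4-KO libraries, against 37.42 to 89.79 CPM for Ddx3y and Eif2s3y in the WT libraries. The part of the marker and Y-linked shifts in the results below was not tested, and counts without chromosome 14 stand beside the results. In bulk RNA, fewer cells of a type and less RNA per cell cannot be told apart.

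Genes that hold an anchor of a distal-distal loop were called at a share near that of all genes. Of the 1405 such genes, 1292 were in the count table and 1185 passed the filter on low counts. Of these, 117 (9.87%) passed edgeR's quasi-likelihood test at a Benjamini-Hochberg false discovery rate (FDR) of 0.05, against 8.3% of all 15517 genes tested. They were 36 higher (3.04%, against 2.96%) and 81 lower (6.84%, against 5.34%) in KLF4-KO cells, and their median log2 fold change was -0.012, against -0.002 over all genes. Genes inside other distal KLF4-KO anchors only were called at 8.77% (135 of 1540). Without chromosome 14 the count was 100 of 1146 (8.73%), against 7.91% of all genes off that chromosome, an alternative chosen after the data were seen. Of the 58 genes with at least 5 such anchors, 55 were tested and 4 were called. Leaving out WT library 1 gave 218 called host genes (18.1%, against 15.5% of all genes), and leaving out KLF4-KO library B gave 75 (6.15%, against 6.14%).

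Genes joined to these anchors by a mid-range loop to a gene end numbered 4230, of which 3049 were tested. Of these, 189 were called (6.20%, 69 higher and 120 lower), against 8.3% of all genes, and their median log2 fold change was -0.009. Of genes at other mid-range gene-end anchors, 224 of 4047 were called (5.53%). The count of joined genes was 473 without WT library 1 (15.3%, against 15.5% of all genes), 117 without KLF4-KO library F (3.78%, against 6.19%) and 165 of 2955 without chromosome 14 (5.58%, against 7.91%). The 190 tested genes with an internal promoter in such an anchor had 6 higher and 10 lower. These shares were close to those of all genes tested (2.96% higher and 5.34% lower).

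RNA from the genes at the strongest loops mostly did not pass the test. Esrrb had 602.4 and 581.6 CPM in the KLF4-KO libraries, against 778.3 and 662.1 CPM in the WT libraries. Both KLF4-KO values were under both WT values, by a log2 fold change of -0.28 ± 0.25 (SE, edgeR FDR 0.540). Nanog had 620.6 and 572.1 CPM, against 783.9 and 773.9 CPM in WT, a log2 fold change of -0.39 (FDR 0.387). Slc2a3 had 1493 and 1387 CPM, against 2419 and 1873 CPM in WT (FDR 0.257). Sox2 had 551.7 and 562.6 CPM, against 534.1 and 463.6 CPM in WT (FDR 0.740). The 2 groups did not overlap in these 4 genes, as they did not in 53.5% of all genes tested, and the sign was negative for 3 of them. Etl4, with the most loops, had 67.31 and 122.2 CPM, against 149.9 and 80.06 CPM in WT, and its groups overlapped (log2 fold change -0.28, FDR 0.703). Smarcad1 (FDR 0.317), Chd2 (0.861), Aff1 (0.149), Cdh1 (0.601), Ptprk (0.435), Mllt10 (0.718), Fnbp1 (0.350) and Irf2bpl (0.180) did not pass either. Etv5 (FDR 0.0846), Skida1 (0.0836), Commd3 (0.0902) and Gpr107 (0.0584) missed the threshold by less, with log2 fold changes of 0.81, -1.86, -1.16 and -0.84. Dgkg and Gm34276 had too few counts to be tested.

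Most genes named for the strongest loops and hubs did not pass the test, and 5 did. Jarid2 rose 2.27-fold, with 394.5 and 576.0 CPM in the KLF4-KO libraries, against 243.3 and 183.6 CPM in the WT libraries (FDR 0.0427). Phc1 rose 2.65-fold, with 930.1 and 892.7 CPM, against 349.2 and 339.7 CPM (FDR 0.0145). Id1 rose 4.21-fold, with 41.92 and 23.10 CPM, against 5.207 and 10.22 CPM (FDR 0.0269). Gdf3, the gene of a TGF-beta family ligand joined to 2 of the Nanog sites, fell 2.21-fold, with 48.39 and 48.56 CPM, against 96.59 and 117.7 CPM (FDR 0.0272). Ptges, the gene of a prostaglandin E synthase joined to the Fnbp1 hub, fell 3.69-fold, with 11.98 and 23.33 CPM, against 63.12 and 67.33 CPM (FDR 0.0169). The KLF4-KO and WT values did not overlap in these 5, where 53.5% of all genes tested had no overlap and 8.3% passed the test. Jarid2 lost its call without KLF4-KO library F or WT library 2, Phc1 and Gdf3 without either KLF4-KO library, and Ptges without KLF4-KO library B.

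**Figure D5:**
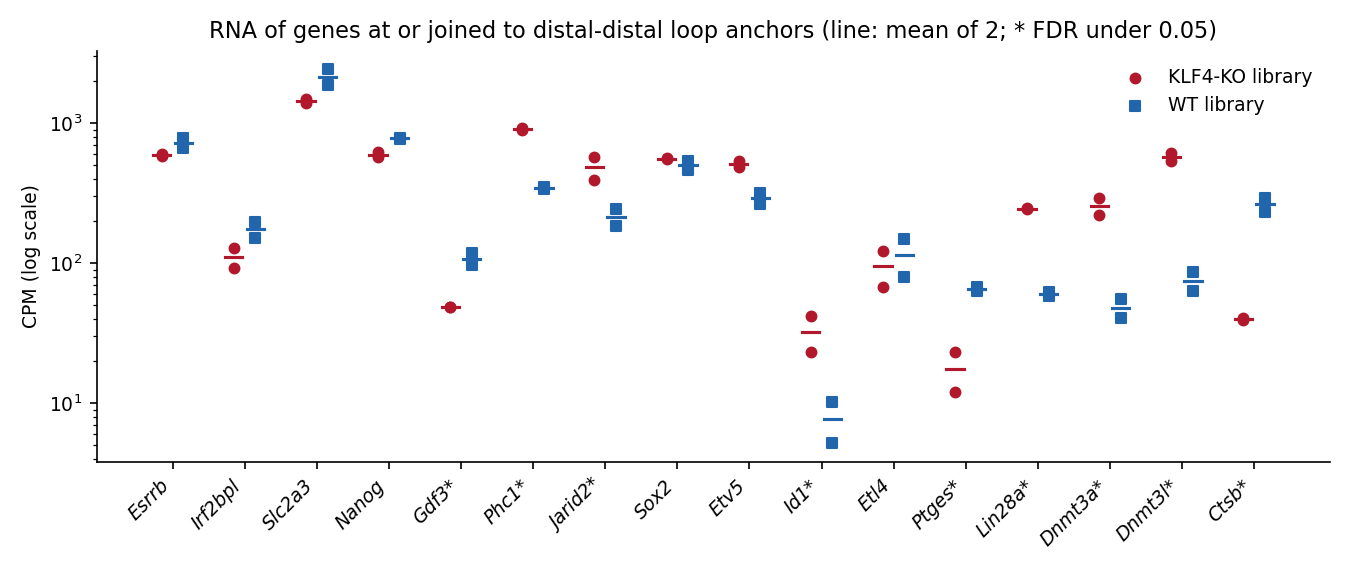
CPM (logarithmic axis) of 16 genes that hold, or are joined to, an anchor of a distal-distal loop, in the 2 KLF4-KO libraries (red) and the 2 WT libraries (blue), with the mean of each pair as a line and an asterisk at FDR under 0.05. Esrrb, Nanog and Sox2 differ little, while Jarid2, Phc1, Lin28a, Dnmt3a and Dnmt3l are higher and Gdf3, Ptges and Ctsb lower in KLF4-KO cells.

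Of all genes that hold or are joined to an anchor, the 10 higher genes with the smallest p included 3 that act on DNA methylation or RNA in early development. Dnmt3a, a de novo DNA methyltransferase gene with 2 anchors inside it, had 219.9 and 291.6 CPM, against 55.36 and 40.35 CPM in WT (5.34-fold, edgeR FDR 0.00383). Its partner gene Dnmt3l, which encodes a cofactor without catalytic activity, had 539.1 and 611.8 CPM, against 62.80 and 86.69 CPM (7.70-fold, FDR 0.00227). Lin28a, the gene of an RNA-binding protein that blocks let-7 microRNAs, had 243.4 and 247.2 CPM, against 62.69 and 58.52 CPM (4.05-fold, FDR 0.00376). Their own distal-distal loops were weak, with at most 2, 2 and 6 PETs within 100 kb. The other 7 were the lactate transporter gene Slc16a3 (19-fold), the alpha-actinin gene Actn3 (9.54-fold), Adam23 (8.72-fold), the kinesin gene Kifc3 (6.67-fold), Spry4, which encodes an inhibitor of FGF signalling (25.7-fold), the transcription factor genes Sox4 (9.24-fold) and Zfp423 (12.3-fold). Their FDRs lay between 0.00117 and 0.00376.

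The 10 lower genes with the smallest p included 3 on chromosome 14, where the median gene was lower. Ctsb, the gene of the lysosomal protease cathepsin B, had 40.72 and 38.97 CPM, against 233.4 and 292.4 CPM in WT (6.60-fold lower, edgeR FDR 0.00209). Its internal anchor was part of loops to sites in the neighbouring genes Fdft1 and Gata4. Tspan14, a tetraspanin gene, was 5.72-fold lower and Mmrn2, the gene of an extracellular matrix protein, 5.80-fold lower. The end of Mmrn2 was joined to 11 anchors of this class with 235 PETs. Elsewhere, Cdx1, a caudal homeobox gene, was 29.6-fold lower, Aqp3, an aquaporin gene, 10.4-fold, Jdp2, a bZIP factor gene, 8.10-fold and Elf3, an ETS factor gene, 5.71-fold. Cyp2b23 was 15.8-fold lower, and Pramel6 had 0 counts in both KLF4-KO libraries, against 7.863 and 9.681 CPM in WT. Both belong to families of near-identical copies, so their counts are uncertain.

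By list, 10 formative epiblast genes, which mark the step after naive pluripotency, were tested and lay within 100 kb of an anchor. Of these, 9 rose (Dnmt3a, Dnmt3b, Dnmt3l, Dusp6, Etv4, Fgf15, Spry4, Zic2 and Zic5), with a median log2 fold change of 2.00 over the 10, as did 15 of all 18 tested genes of the list, near an anchor or not. Etv5 was the tenth. Of 21 such pluripotency genes, Id1, Jarid2, Lin28a and Rarg rose and Tbx3 and Tfcp2l1 fell, with a median of 0.16 over the 21. Tfcp2l1, a naive-state factor gene, had 203.4 and 274.1 CPM, against 1061 and 721 CPM in WT, and lay near 8 loops of at most 6 PETs. Of 4 early neural genes, Ina rose and Nes fell. None of the 9 Mediator, cohesin and related genes passed edgeR's test, as none of all 18 of that list did. The background over all genes was 2.96% higher and 5.34% lower.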

How the data were processed

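The loop lists hold, per the file headers and values, whole-number PET counts between anchor pairs on mm10, deposited by the authors as 1 pooled list per genotype. The gene tables hold raw read counts per Ensembl gene, deposited by the authors. HiC-Pro 2.11.4, HTSeq 0.9.1, HISAT2 2.1.0 and DESeq2 1.18.1 were named with build mm10, per the submitters' processing notes. The sources used here give no loop caller, loop filters or strand setting of the counts, so antisense and overlapping genes cannot be told apart. The members and gene lists were chosen with earlier results of these data known. The replicates are called biological, but the design does not say whether cultures or clones were separate, so p-values measure the spread between these libraries.

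Gene ends came from RefSeq GRCm38.p6. A KLF4-KO anchor was in the WT list if it shared at least 1 base with a WT anchor, and a WT anchor that overlaps 2 KLF4-KO anchors counted for both. The quasi-likelihood test of edgeR 4.0.16 (R 4.3.3) was run on the gene counts with TMM scaling after filterByExpr, with genotype as the 1 term, adjusted by Benjamini-Hochberg over 15517 of 52636 gene identifiers, after the script was tested on simulated data. CPM is per TMM-scaled library, except in the marker sums, where it is per library gene total. The summary rows for reads in no single gene, 64.0% to 65.5% of each table's records, were left out. Symbols matched 52403 identifiers, and genes were matched to RefSeq by symbol. Alternatives were other PET minimums, gene-end windows, distances and overlaps, RLE factors, DESeq2 1.42.0, no filter and leaving out each library. Named were the 10 loops with the most PETs, up to 12 near genes of the first 3 lists, 5 hubs, their host and partner genes, and 10 genes each way by p, with at least 2 CPM and libraries that did not overlap. Intervals are exact (scipy 1.17.1) and cover counting error only. PETs carry no molecular identifiers that the sources describe. One of the 10 lower genes is not reported here.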

Additional observations from a re-analysis of the deposited data

How the results depend on the processing

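Of 3484 distal-distal loops, 1790 were left with at least 3 PETs, 1862 with a gene-end window of 5 kb, 3038 with 2 kb, 2530 from 40 kb up and 3095 without internal promoters, the last chosen after the data were seen. The share with both anchors in the WT list (3.21%) was 2.42% with a window of 5 kb and also 2.42% without internal promoters, 8.21% if a WT anchor within 5 kb counted, and 0.459% if 50% of each anchor had to overlap. The count of 1288 changed genes became 0 with no filter on low counts, where edgeR adjusted over all 52636 identifiers (4021 at an unadjusted p under 0.05), and 1607 by DESeq2. The host genes (117) and joined genes (189) also became 0 (311 and 605 at an unadjusted p under 0.05), and 158 and 280 by DESeq2. Over the 15517 genes that edgeR tested, DESeq2 called 10.3%, with 13.3% of host genes and 9.18% of joined genes. With loops of at least 3 PETs, edgeR called 66 of 706 host genes (9.35%) and 104 of 1409 joined genes (7.38%), against 8.3% of all genes. Leaving out 1 library at a time gave 1013 to 2517 changed genes, 75 to 218 host genes and 117 to 473 joined genes, with the highest without WT library 1. Leaving out 1 library turned the sign of 10 named genes, none of which passed the test in any of these fits. Over the 4 fits their log2 fold changes ran from -0.76 to 0.16 for Arhgap21, -0.32 to 0.059 for Asb6, -0.21 to 0.45 for Chd2, -0.76 to 0.24 for Etl4, -0.21 to 0.16 for H13, -0.28 to 0.015 for Mcts2, -0.11 to 0.54 for Mllt10, -0.84 to 0.20 for Ncs1, -0.43 to 0.27 for Tor1a and -0.63 to 0.24 for Tor1b. No other alternative turned the sign of a named gene. Without a filter, 26 named genes lost their call. The cause was not tested. No paired analysis was possible because the KLF4-KO count columns carry the letters B and F and no replicate number. Depth limits the loops, since 48.6% rest on 2 PETs and the WT pool held far fewer PETs.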

Other observations

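Beyond the loops named above, distal-distal loops of at least 20 PETs lay inside Zmynd8 (42 PETs), Msi2 (34 PETs) and Fbxo36 (34 PETs). Another, of 29 PETs, joined an anchor in Ccr4 to one in Trim71, the gene of an RNA-binding ubiquitin ligase of stem cells. A loop of 30 PETs joined 2 sites in no gene, both of which contacted ends of the early embryo genes Dppa5a and Ooep and of Eef1a1. The WT pool listed no PETs for these, but each had an anchor that overlapped no WT anchor and so has no WT value. A group of 26 anchors and 34 loops lay over a cluster of zinc finger genes on chromosome 4, with 18 protein-coding genes and a highest value of 24 PETs. Near-identical copies make mapping uncertain there.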
